A study of Mus musculus with 4 samples.

Results

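Of 5140 genes with a value on 3 or more arrays, 57 carry names of the apoptosis machinery and are described here. They were taken by symbol alone, from the caspases, the Bcl-2 family, the inhibitor of apoptosis proteins, the death receptor adaptors, the p53 regulators and families named after cell death, each through 1 probe. RNA came from the neocortex of C57BL/6 mouse embryos at embryonic day 16. In all, 4 null mutant samples, labelled as biological replicates from a synaptically silent brain, were each hybridised on a dual-colour array beside a pool of 4 normal (wild-type) replicates. Null RNA carried Cy3 on replicate 1 and Cy5 on replicates 2, 3 and 4. The source name of replicate 1 gives day 14, against day 16 in its title and characteristics.

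Apoptosis through mitochondria begins when BH3-only proteins unleash Bax and Bak1, which open the outer mitochondrial membrane unless anti-apoptotic Bcl-2 proteins hold them back. Released cytochrome c joins Apaf1 and Casp9 in the apoptosome, which activates executioner caspases. Death receptors such as Fas reach the same caspases through Fadd and Casp8. In the embryonic cortex, apoptosis removes progenitors and young neurons, and neuronal survival depends on trophic support and activity.

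Values are log ratios of the 2 channels as deposited, taken as log2 since the base is not stated. The labels do not say which channel is the numerator. A sign therefore does not tell whether null mutants were above or below the pool, and signs are printed as deposited. Replicates 2 to 4 run the same way whichever channel is the numerator, and they carry the comparison of null mutants with the pool. On these arrays null RNA always had the same dye, so that dye and genotype cannot be told apart. The single pool counts as 1 control sample, so the tests leave out the spread between controls. A ratio of this kind holds no level, so neither the level of a gene nor the presence of neocortical markers could be checked. Fewer cells of a type and less RNA per cell cannot be told apart in bulk tissue either.

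Of 68 probes with a matching name, 11 had no value on any array. These were Casp8, Casp14, Bik, Pmaip1, Bcl2l2, Cflar, Ripk4, Traf5, Dapk2, Dapp1 and Trp73. Bax and Trp53 were not analysed here. Among the 57 members, 56 had a value on every array, and Pdcd1 lacked replicate 3. Pdcd1, the inhibitory T cell receptor PD-1, had -1.32 on replicate 2, 0.040 on replicate 4 and 0.48 on replicate 1. Across all probes the SD of the log ratio was 0.48, 0.43, 0.63 and 0.40 on replicates 1 to 4, so replicate 3 was the widest. Over the 56 members with 4 values, Pearson's r was 0.23 for replicates 2 and 3, 0.030 for 2 and 4, and -0.059 for 3 and 4. The same pairs had 0.24, 0.23 and -0.0022 over 5687 probes. By rank (Spearman) they had 0.26, 0.16 and 0.26 over the members, and 0.28, 0.22 and 0.013 over 5687 probes. Replicate 1 as deposited had Pearson's r of -0.39, -0.18 and -0.022 with replicates 2, 3 and 4 over the members. Over 5687 probes it had -0.020, 0.077 and -0.12. These correlations are across probes, which are not independent replicates, and all arrays share the pool.

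The apoptosis genes lay toward the positive side on replicates 2 to 4, by small amounts. A positive mean was found for 38 of 56 genes (67.9%), against 47.4% of all 5720 probes tested. On all 3 arrays 21 genes were positive, or 37.5% against 16.3% of all probes, and 3 were negative, or 5.36% against 17.3% of all probes. The median of the members' means was 0.12, beside -0.016 over all probes tested. No gene of the group passed an adjusted p of 0.05 with limma, against 0.0% of all probes. At an unadjusted p under 0.05 with limma stood 6 of 56 genes (10.7%), a share near the 9.67% of all probes. Of these, 5 were positive, namely Hrk, Fasl, Apaf1, Traf6 and Pdcd10, and 1 was negative, Endog. The background shares were 5.61% positive and 4.06% negative.

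The lean to positive values was present on each array with null RNA in Cy5. On replicate 2, 42 of 57 members were positive (73.7%), beside 45.9% of all probes. On replicate 3 the count was 32 of 56 (57.1%), beside 49.7% of all probes. On replicate 4 it was 39 of 57 (68.4%), beside 50.7% of all probes. Replicate 1, with null RNA in Cy3, had 27 of 57 positive as deposited (47.4%), beside 50.2% of all probes. The members' median was 0.12, 0.060 and 0.058 on replicates 2, 3 and 4, and -0.067 on replicate 1. Leaving out replicate 2 brought the share with a positive mean to 57.1%, beside 48.0% of all probes. Without replicate 3 it was 70.2%, beside 46.3% of all probes, and without replicate 4 it was 71.4%, beside 48.1%. No test was made of the group as a whole, because its members were chosen with earlier results known.

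**Figure D1:**
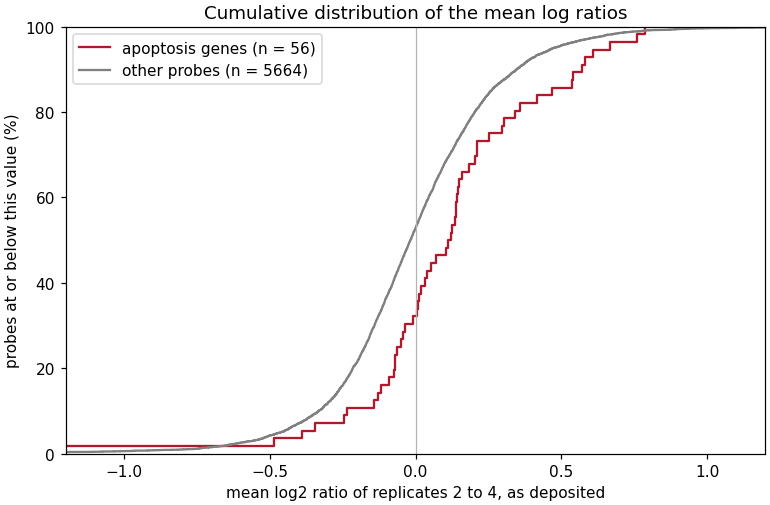
Cumulative share of probes (vertical axis, percent) by mean log2 ratio of replicates 2 to 4 (horizontal axis, cut at 1.2 on either side), for 56 apoptosis genes and 5664 other probes. The line of the apoptosis genes lies to the right over most of the range, with a median of 0.12 against -0.018, and its single value off the left edge is Cidea.

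Promoter sequences are printed for the 3 positive genes with the smallest p, Hrk, Fasl and Apaf1, and for Endog, the negative gene at an unadjusted p under 0.05, so that the letters shared by genes with like values can be read. Each is the 250 bases before the start of transcription, 5′ to 3′ on the gene's strand, from RefSeq on build GRCm38.p6. Capitals mark matches on either strand to any of the motifs searched. The windows are chr5:118169514-118169763, plus strand for Hrk, chr1:161788496-161788745, minus strand for Fasl, chr10:91082744-91082993, minus strand for Apaf1 and chr2:30171274-30171523, plus strand for Endog.
Hrk: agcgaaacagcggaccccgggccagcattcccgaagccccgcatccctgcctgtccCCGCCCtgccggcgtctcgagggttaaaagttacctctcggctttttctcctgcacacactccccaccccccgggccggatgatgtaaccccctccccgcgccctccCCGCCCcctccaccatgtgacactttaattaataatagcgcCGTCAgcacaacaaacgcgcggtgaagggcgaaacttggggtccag
Fasl: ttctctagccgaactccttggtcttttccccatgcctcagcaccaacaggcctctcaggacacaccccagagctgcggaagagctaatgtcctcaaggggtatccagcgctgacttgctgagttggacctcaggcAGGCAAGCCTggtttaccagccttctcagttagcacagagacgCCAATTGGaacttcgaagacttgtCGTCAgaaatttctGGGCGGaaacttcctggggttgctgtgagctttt
Apaf1: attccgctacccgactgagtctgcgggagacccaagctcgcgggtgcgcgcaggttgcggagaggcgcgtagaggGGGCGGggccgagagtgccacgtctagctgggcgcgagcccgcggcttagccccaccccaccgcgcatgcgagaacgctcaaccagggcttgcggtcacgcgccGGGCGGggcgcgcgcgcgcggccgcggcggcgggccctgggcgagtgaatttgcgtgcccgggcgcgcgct
Endog: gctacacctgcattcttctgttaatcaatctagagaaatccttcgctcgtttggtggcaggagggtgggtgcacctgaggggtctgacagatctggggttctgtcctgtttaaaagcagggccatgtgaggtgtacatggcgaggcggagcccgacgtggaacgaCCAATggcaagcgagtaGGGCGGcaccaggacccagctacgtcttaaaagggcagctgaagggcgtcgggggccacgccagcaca

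RefSeq promoters were found for 52 of the 57 members. All 4 windows hold a GC box (GGGCGG or its reverse complement), with 2 matches in Hrk, 2 in Apaf1, 1 in Fasl and 1 in Endog. Of all 32851 promoter windows, 32.7% hold a GC box, and of 64 windows of 52 members, 62.5% do. GC content differs as well, with a median of 58.6% over the members' windows and 52.4% over all. Hrk and Fasl each hold the CRE half-site (TGACG), 46 and 48 bases before the start at its far end, as do 17.8% of all windows and 21.9% of the members' windows. Fasl holds overlapping matches of the CCAAT box (CCAAT) on both strands, and Endog holds 1. That motif is in 33.8% of all windows. Fasl also holds a p53 half-site, found in 7.13% of all windows. None of the 4 windows holds the TATA box (TATAAA, in 12.4% of all windows), the AP-1 motif (TGANTCA, 6.75%), the forkhead motif (GTAAACA, 3.17%) or the E2F core, searched as TTTCCCGC, as TTTCGCGC, as TTTGCCGC and as TTTGGCGC (1.86%). A match describes the letters of the window and is no evidence of binding.

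The BH3-only proteins, which sense damage and loss of trophic support, had 4 measured members, all with a positive mean. Hrk (harakiri), which binds Bcl-2 and Bcl-xL and is induced in neurons deprived of trophic factors, had log ratios of 0.68, 0.72 and 0.60 on replicates 2, 3 and 4. These values lay within a narrow band, and the mean of 0.67 ± 0.063 (SD, n = 3), or 1.59-fold in size, had an adjusted p of 0.450 with limma. The 95% interval of the mean was 0.33 to 1.01. By unadjusted p, 0.00329, Hrk ranked 34 of 5720 probes. Its promoter is the first of those printed above.

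The other BH3-only genes were closer to 0. Bad, which survival kinases phosphorylate and hold inactive, had 0.12, 0.075 and 0.25 on replicates 2, 3 and 4, positive on each. Bcl2l11, which encodes Bim, had 0.26, -0.048 and 0.22 on replicates 2, 3 and 4, and Bid, cleaved by Casp8 to link death receptors to mitochondria, had 0.43, -0.40 and 0.026. Bim and Bid therefore had mixed signs, with means of 0.14 ± 0.17 and 0.018 ± 0.42 (SD, n = 3).

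Both measured multidomain effectors, the proteins that form the mitochondrial pore, had small means. Bok had 0.19, 0.077 and 0.18 on replicates 2, 3 and 4, all positive, with a mean of 0.15 ± 0.064 (SD, n = 3). Bak1 had 0.23, 0.53 and -0.35 on the same arrays, and replicate 4 took the opposite sign to the others.

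The anti-apoptotic Bcl-2 proteins, which bind and hold the effectors, differed between arrays, with a median SD of 0.45 over 5 genes, the largest of the roles, against 0.27 over all probes. Bcl2 had 0.39, 0.035 and 0.60 on replicates 2, 3 and 4, all positive, with a mean of 0.34 ± 0.29 (SD, n = 3). Bcl2l1, which encodes Bcl-xL, a main survival factor of young neurons, had 0.12, -0.74 and -0.088 on these arrays. Its mean of -0.24 ± 0.45 was the only negative mean among the 5. Mcl1, a short-lived protein needed by neural progenitors, had 0.49, -0.14 and 0.058 on replicates 2, 3 and 4. Bcl2a1c had 0.64, 1.71 and -0.63 and Bcl2l10 had 0.61, 2.76 and -1.09, each highest on replicate 3 and negative on replicate 4. Bcl2a1c belongs to a family of near-identical mouse genes that a probe may not tell apart.

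Bcl2l15, Bnip3, Bnip3l and Bcl10, taken by name and placed in none of the Bcl-2 groups above, were each positive on all 3 arrays. Bcl2l15, a Bcl-2 relative, had 0.38, 0.91 and 0.11 on replicates 2, 3 and 4, with an unadjusted p of 0.0543 from limma and an adjusted p of 0.522. Bnip3, a receptor for the removal of mitochondria that responds to low oxygen, had 0.24, 0.53 and 0.15. Its relative Bnip3l had 0.078, 0.18 and 0.070. Bcl10, an adaptor of NF-kB signalling in lymphocytes, had 0.16, 0.67 and 0.054. The means ran between 0.11 for Bnip3l and 0.47 for Bcl2l15.

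Among factors of the apoptosome and mitochondrial release, Apaf1 and Endog stood apart from the others, with opposite signs. Apaf1, the scaffold that binds cytochrome c and Casp9, had 0.51, 0.68 and 0.43 on replicates 2, 3 and 4. All 3 were positive, with a mean of 0.54 ± 0.13 (SD, n = 3), 1.45-fold in size, and an adjusted p of 0.454 with limma. Endog, the mitochondrial nuclease endonuclease G, had -0.46, -0.50 and -0.21 on replicates 2, 3 and 4. All were negative, with a mean of -0.39 ± 0.16 (SD, n = 3), an unadjusted p of 0.0393 from limma and an adjusted p of 0.492. Cycs, which encodes cytochrome c, had 0.011, 0.57 and 0.048, so that replicate 3 made most of its mean. Aifm1, the flavoprotein that moves to the nucleus in caspase-independent death, had 0.25, -0.12 and -0.31. Diablo (Smac), which displaces inhibitor of apoptosis proteins from caspases, had 0.084, -0.0093 and -0.034, all close to 0.

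The caspases had means between -0.25 and 0.21. Casp9, the initiator activated on the apoptosome, had 0.081, 0.14 and 0.26 on replicates 2, 3 and 4, and Casp2, another initiator, had 0.060, 0.031 and 0.33. Both were positive on each array, with means of 0.16 ± 0.088 and 0.14 ± 0.16 (SD, n = 3). Casp6, the measured executioner caspase, had 0.27, 0.20 and 0.15, also positive on each, with a mean of 0.21 ± 0.059. Inflammatory caspases had mixed signs. Casp1, which matures interleukin-1 beta, had -0.13, 0.090 and 0.20, Casp4 had 0.16, -0.095 and 0.14 and Casp12, placed at the endoplasmic reticulum, had 0.042, -0.52 and -0.26. None of the 6 caspases had an unadjusted p under 0.05 with limma, and the smallest belonged to Casp6 at 0.190.

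DNA fragmentation in apoptosis is carried out by the nuclease Dffb, which its chaperone and inhibitor Dffa holds until caspases cleave it. Dffb had 0.14, -0.53 and 0.039 on replicates 2, 3 and 4, and Dffa had 0.20, -0.20 and -0.022. Neither kept a sign. Cidea, a relative by sequence that acts on lipid droplets in brown fat, had -4.45, -0.38 and -0.21 on replicates 2, 3 and 4. It had the largest mean in size among the members, -1.68 ± 2.40 (SD, n = 3), and replicate 2 made that value, since the mean without it was -0.30. Its adjusted p was 0.558 with limma.

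Inhibitor of apoptosis proteins had means near 0 apart from Xiap. Xiap, which blocks executioner caspases and Casp9 directly, had -0.57, 0.89 and 2.03 on replicates 2, 3 and 4. The signs were mixed, the SD of 1.31 exceeded the mean of 0.79, and the mean was 0.16 without replicate 4. Birc2, the ubiquitin ligase cIAP1, had 0.25, 0.064 and 0.061, positive on each. Birc6, a large ubiquitin-conjugating protein, had -0.20, -0.20 and 0.19, and Birc5, which encodes survivin of dividing cells, had 0.22, -0.13 and 0.033.

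**Figure D2:**
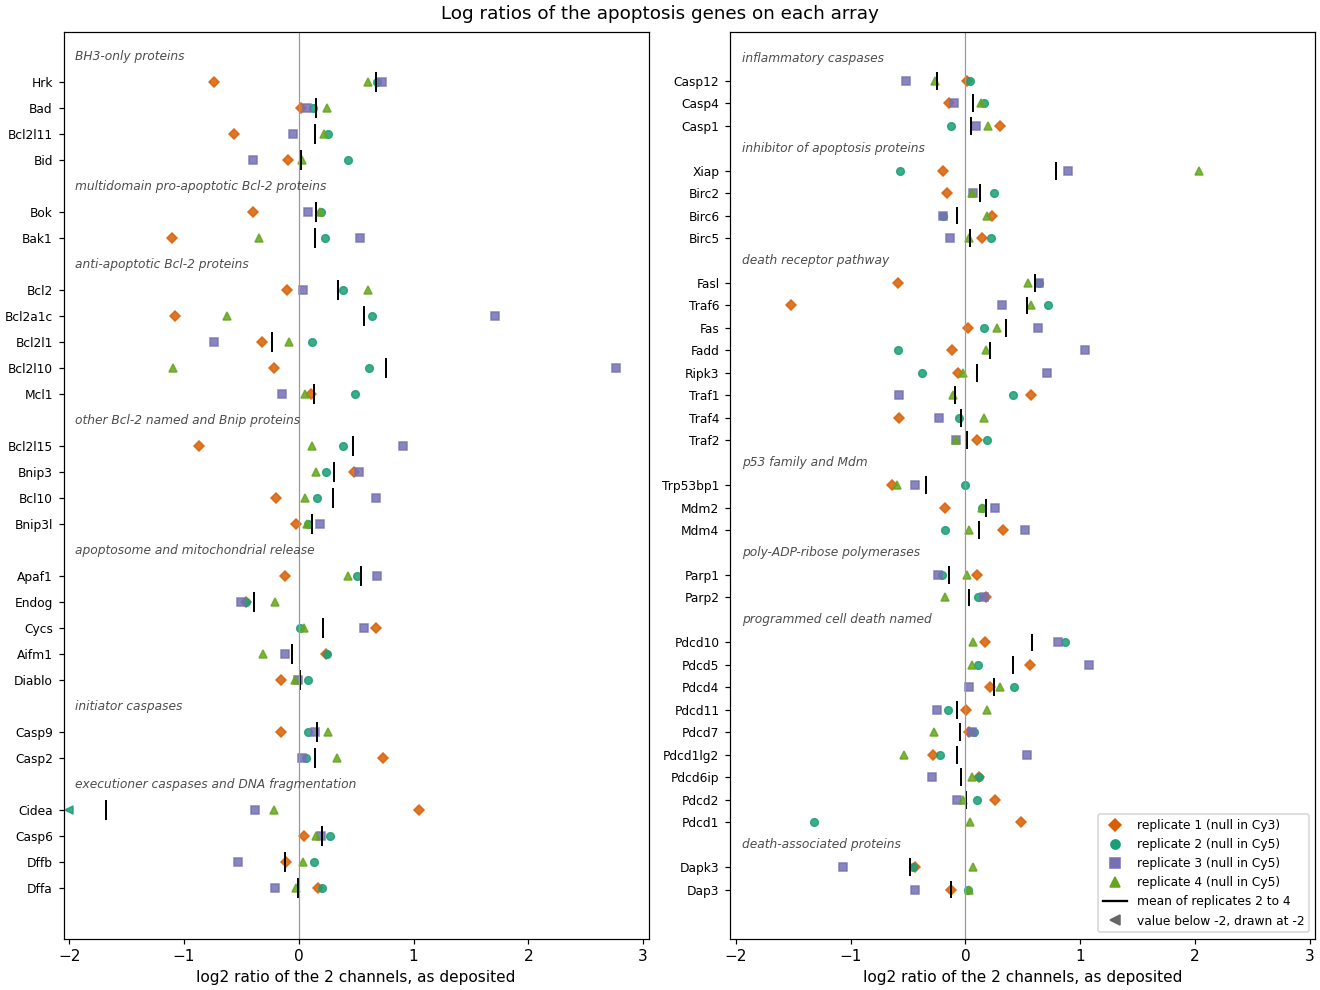
Log2 ratio as deposited (horizontal axis) of each of 57 apoptosis genes (rows, grouped by role and ordered by p within a role) on each array, with a bar at the mean of replicates 2 to 4. The symbols of replicates 2 to 4 lie close together and right of 0 for Hrk, Fasl and Apaf1, left of 0 for Endog, and far apart for Bcl2l10, Xiap and Cidea.

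In the death receptor pathway, the ligand and its receptor were positive on every one of replicates 2 to 4. Fasl, the Fas ligand of cytotoxic lymphocytes, had 0.64, 0.64 and 0.54 on replicates 2, 3 and 4. This was the smallest spread of any of the 56 genes, with a mean of 0.61 ± 0.055 (SD, n = 3), 1.52-fold in size, and an adjusted p of 0.454 with limma. The unadjusted p of Fasl was 0.00506, rank 62 of 5720. Fas, the receptor, had 0.16, 0.64 and 0.27 on replicates 2, 3 and 4, with a mean of 0.36 ± 0.25 and an unadjusted p of 0.0706 from limma. On replicate 1 as deposited, Fas had 0.024 and Fasl -0.59, so that ligand and receptor did not share a sign there. Fadd, the adaptor between Fas and Casp8, had -0.59, 1.04 and 0.18, opposite in sign on replicate 2.

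Traf6, the ubiquitin ligase behind Toll-like and interleukin-1 receptors, had 0.72, 0.32 and 0.58 on replicates 2, 3 and 4. All were positive, with a mean of 0.54 ± 0.20 (SD, n = 3) and an adjusted p of 0.473 with limma. The other signal adaptors had mixed signs. Traf1 had 0.42, -0.58 and -0.11, Traf2 had 0.19, -0.081 and -0.079 and Traf4 had -0.058, -0.23 and 0.16. Ripk3, the kinase of necroptosis, had -0.38, 0.71 and -0.018, with replicate 3 opposite to the others.

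Regulators of p53, the transcription factor that responds to DNA damage, did not share a sign. Mdm2, the ubiquitin ligase that degrades p53 and is itself induced by it, had 0.14, 0.26 and 0.15 on replicates 2, 3 and 4. Its partner Mdm4 had -0.18, 0.52 and 0.028, with mixed signs. Trp53bp1, a scaffold of double-strand break repair, had -0.0047, -0.44 and -0.60, negative on each but barely so on replicate 2. Their means were 0.18 ± 0.064, 0.12 ± 0.36 and -0.35 ± 0.31 (SD, n = 3), and none had an unadjusted p under 0.05 with limma. Parp1, the break sensor cleaved by caspases, had -0.20, -0.24 and 0.016, and Parp2 had 0.11, 0.17 and -0.18.

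Genes named for programmed cell death have unlike functions, and 3 of 8 tested were positive on all of replicates 2 to 4. Pdcd10, the vascular malformation gene CCM3, had 0.86, 0.81 and 0.069 on replicates 2, 3 and 4. The first pair of arrays was high and replicate 4 was near 0, with a mean of 0.58 ± 0.44 (SD, n = 3), an unadjusted p of 0.0309 from limma and an adjusted p of 0.481. Pdcd5 had 0.11, 1.08 and 0.058, high on replicate 3, and Pdcd4, an inhibitor of translation, had 0.42, 0.028 and 0.30. The other 5, Pdcd2, Pdcd7, Pdcd11, Pdcd1lg2 and Pdcd6ip, had mixed signs and means between -0.074 and 0.0042. Dapk3, a death-associated kinase of the cytoskeleton, had -0.46, -1.06 and 0.065, negative on replicates 2 and 3. Dap3, a protein of the mitochondrial ribosome, had 0.026, -0.44 and 0.031.

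**Figure D3:**
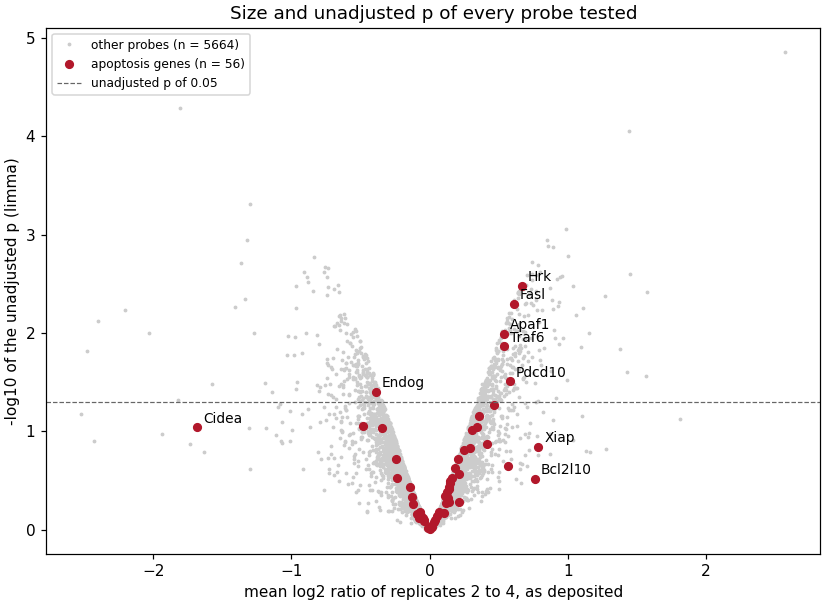
Mean log2 ratio of replicates 2 to 4 (horizontal axis) and -log10 of the unadjusted p from limma (vertical axis) for 56 apoptosis genes and 5664 other probes, with a dashed line at a p of 0.05. Hrk, Fasl, Apaf1, Traf6 and Pdcd10 stand above the line on the right and Endog on the left, and other probes lie further out on both sides.

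The precision of 3 arrays bounds these statements. The 95% interval of the median member was its mean plus or minus 0.39, which is 1.31-fold, at an unadjusted level. The adjusted threshold asks for more, since Hrk at 1.59-fold had an adjusted p of 0.450 with limma. Means beyond 0.5 in size were seen for 9 of 56 genes (16.1%), beside 8.72% of all probes. Cidea alone had a mean beyond 1, as did 54 of all 5720 probes. Of the 9, Cidea, Bcl2l10, Xiap and Bcl2a1c had an SD of 2.40, 1.93, 1.31 and 1.17, each larger than the size of its mean.

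Replicate 1 had the dyes exchanged. If the deposited ratio is by dye, a difference by genotype would change sign on replicate 1, and if the ratio is already by genotype, it would keep its sign. Hrk had -0.74 on replicate 1 and Fasl -0.59, each close in size to the values on replicates 2 to 4 and opposite in sign. Traf6 had -1.52, Bcl2l15 -0.87 and Apaf1 -0.12, also opposite, with Apaf1 near 0. Endog had -0.46, the same sign as on the other arrays, near replicates 2 and 3 in size and larger than replicate 4, and Pdcd10 had 0.17, also the same sign. Of the 24 genes with one sign on replicates 2 to 4, replicate 1 was opposite in 13 (54.2%) and the same in 11. Over all probes of this kind, 53.9% were opposite.

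The choice of sign for replicate 1 therefore changed which genes led. With replicate 1 turned, limma on 4 arrays listed 5 of 56 genes at an unadjusted p under 0.05, or 8.93%, against 8.44% of all probes. These were Hrk, Fasl, Apaf1, Traf6 and Bcl2l15, all positive. Hrk then had a mean of 0.69 ± 0.063 and Fasl 0.60 ± 0.046 (SD, n = 4), with an adjusted p of 0.371 for both from limma. With replicate 1 as deposited, 5 of 56 were listed, against 7.12% of all probes. These were Pdcd10 and the mitophagy receptor Bnip3 on the positive side, and Endog, Trp53bp1 and Dapk3 on the negative side. Endog had a mean of -0.41 ± 0.13 (SD, n = 4) and Trp53bp1 -0.42 ± 0.29, and the smallest adjusted p was 0.663 with limma. No gene was in both lists.

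**Figure D4:**
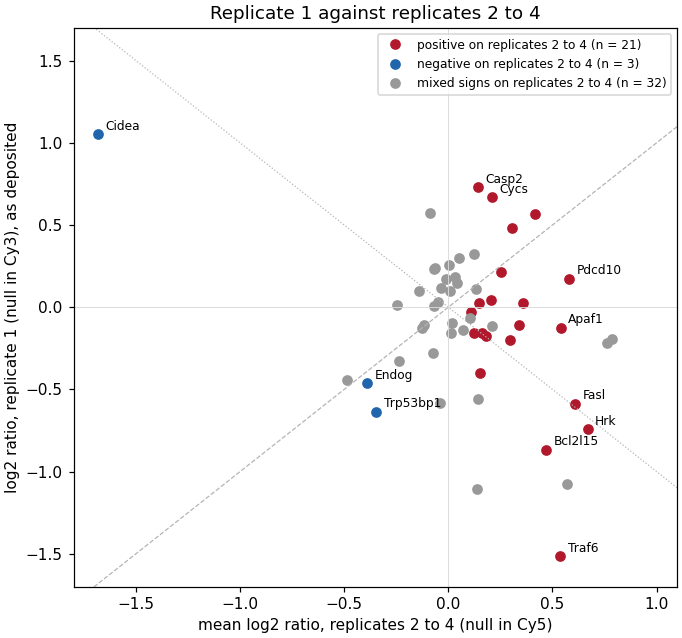
Log2 ratio on replicate 1 as deposited (vertical axis) against the mean of replicates 2 to 4 (horizontal axis) for 56 apoptosis genes, coloured by their signs on replicates 2 to 4. Points on the dotted line are equal in size and opposite in sign, as Hrk and Fasl nearly are, and points on the dashed line are equal, as Endog nearly is.

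Other genes of the pathway came from 4 lists outside the named families. Of 71 tested together, 33 (46.5%) had a positive mean, beside 47.4% of all probes. Positive on all 3 arrays were 11 (15.5%), beside 16.3% of all probes. Among other parts of the death machinery, 15 of 26 tested genes had a positive mean, with a median of 0.017. Of these 26, 3 (11.5%) had an unadjusted p under 0.05 with limma, beside 9.67% of all probes. Casp8ap2, a protein of histone mRNA processing that binds Casp8, had 0.92, 1.23 and 0.80 on replicates 2, 3 and 4. Bag6, a chaperone, had -1.26, -0.81 and -0.15, and Api5, an inhibitor of apoptosis after loss of growth factors, had 0.26, 0.67 and 0.27. Targets of p53 had 4 of 15 positive, a median of -0.065 and none at such a p. Pml, the organiser of nuclear bodies, had -0.20, -1.16 and -0.095, Ccng1 had 0.049, 0.26 and 0.38 and Gadd45g, a stress-response gene, had -0.23, -0.45 and 0.012.

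Death receptors and their ligands had 4 of 11 genes with a positive mean and a median of -0.018. None had an unadjusted p under 0.05 with limma. Ltb, a lymphotoxin subunit, had 0.85, 2.15 and -0.39, with replicate 4 opposite. Tnfrsf21, the death receptor 6 of developing neurons, had -0.36, -0.47 and -0.036, and Tnfsf11 had 0.38, -2.39 and -0.41. Of NF-kB and survival kinase genes, 10 of 19 were positive with a median of 0.035. Akt2, Map3k7 and Ikbkg had an unadjusted p under 0.05 with limma, or 3 of 19 (15.8%), beside 9.67% of all probes. Akt2 had -0.53, -0.76 and -0.32 and Ikbkg had -0.30, -2.08 and -0.52, both negative on each array. Map3k7 had 0.47, 0.79 and 0.31, positive on each. Of the 71 genes in the 4 lists, 6 (8.45%) had an unadjusted p under 0.05 with limma, a share near the 9.67% of all probes. None of the 71 passed an adjusted p of 0.05 with limma.

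Markers of other cell types were measured on the same arrays, and none passed an adjusted p of 0.05 with limma. At an unadjusted p under 0.05 stood 4 of 10 tested microglial markers, all positive, 4 of 9 vessel markers, 2 of 4 meningeal and 2 of 4 blood markers, all negative, and 3 of 10 neocortical markers, against 9.67% of all probes. Of 12 microglial markers 10 were tested, and 7 had a positive mean, with a list median of 0.30, 0.44 and 0.17 on replicates 2, 3 and 4. Lyz1, a lysozyme, had the smallest p of these, with 0.77, 0.71 and 0.74. The complement gene C1qb was negative on each array, with -0.19, -1.28 and -0.013, and Cd14 and Itgam had negative means of -0.52 and -0.22. Fas, Fasl and Casp1 are also used by immune cells. On replicate 1 as deposited, these 3 genes had 0.024, -0.59 and 0.30, and the microglial list median was -0.085. The 4 microglial markers at an unadjusted p under 0.05 with limma did not all share a sign there. Lyz1, Ctss and Tyrobp had 0.81, 0.72 and 0.19, positive as on replicates 2 to 4, and Laptm5 had -0.29. Of 9 vessel markers 6 were negative, with list medians of -0.29, -0.38 and -0.26, and all 4 tested markers of meninges and all 4 of blood had a negative mean. Neocortical markers had 4 of 10 positive and a median of -0.054. Those at an unadjusted p under 0.05 with limma were Emx1 with a mean of -0.63, Neurod2 with -0.44 and Dcx with 0.40, and their smallest adjusted p was 0.473. The part of cell composition in the values of the apoptosis genes was not tested.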

How the data were processed

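The values are the authors' deposited processed ratios, 1 column per array with 0 columns left unused, taken as log2 because they centre near 0 and reach sizes beyond log10 ratios of a scanner. Log base, background correction, normalization and numerator are not stated, and signal over background is unknown. Genes were named by the platform annotation, and Entrez IDs in RefSeq changed 0 symbols. The number of arrays limits the precision.

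Each probe's mean log ratio on replicates 2 to 4 was tested against 0 with limma 3.58.1 (lmFit, eBayes; R 4.3.3), two-sided, with Benjamini-Hochberg adjustment over all 5720 probes with 3 values. The steps were tested on simulated data with shifts larger than the mean of any member. That does not show how often smaller shifts would be found. Named genes were the 10 smallest p per sign with one sign on all 3 arrays, the 3 smallest per role, and core genes, and the remaining members were added after their values were seen. Members, roles and lists were chosen with earlier results of these data known. Alternatives changed the sign of replicate 1, dye, centring, scale, missing values, averaging, variance prior, array weights, thresholds and the arrays used. The identity of the mutated gene is not reported here.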

Additional observations from a re-analysis of the deposited data

Results flagged for a closer look

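Among 56 apoptosis genes with 4 values, the gap between the most distant array and its nearest neighbour was compared with the gene's whole range, once with replicate 1 as deposited and once with it turned. Of 112 such sets, 9 (8.04%) exceeded Dixon's 95% critical value, beside 5.08% of the sets of all 5687 probes with 4 values, and chance gives about 1 in 20. Both versions of a gene share 3 arrays and are not independent.

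With replicate 1 as deposited, Hrk was set apart by replicate 1 at -0.74 and Fasl by replicate 1 at -0.59. Endog was set apart by replicate 4 at -0.21, Pdcd6ip (Alix, of the membrane-remodelling ESCRT pathway) by replicate 3 at -0.29, and Pdcd7 by replicate 4 at -0.27. With replicate 1 turned, Traf2 was set apart by replicate 2 at 0.19, Birc6 by replicate 4 at 0.19, Casp4 by replicate 3 at -0.095 and Dffb by replicate 3 at -0.53.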

How the results depend on the processing

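No alternative run brought an apoptosis gene past an adjusted p of 0.05 with limma, or past 0.1, and the smallest adjusted p under any of them was 0.130, with array weights. The number of members at an unadjusted p under 0.05 was 6, between 5 and 7 under 8 other settings, 10 with array weights (18.7% of all probes), and 3 to 9 when an array was left out, with 3 without replicate 2 (4.09% of all probes) and 9 without replicate 4 (10.9%). At an unadjusted p of 0.01 it was 2. The members' median of 0.12 was 0.067 on 4 arrays with replicate 1 as deposited, 0.060 on 4 arrays turned with a dye term, and 0.082 to 0.12 when an array was left out. Chosen after seeing the data, the number with a positive mean was 38 of 56 on replicates 2 to 4. It was 33 on 4 arrays with replicate 1 turned (58.9%, beside 46.7% of all probes), and also 33 with a dye term. As deposited it was 39 (69.6%, beside 47.0%), and 32 to 40 when an array was left out (57.1% to 71.4%, beside 46.3% to 48.1%). The number positive on every array, 21 of 56, was 12 on 4 arrays with replicate 1 turned (21.4%, beside 8.53% of all probes) and 9 as deposited (16.1%, beside 7.77%). On the pair of arrays that remained when 1 was left out, it was 25 to 29 (44.6% to 50.9%, beside 25.4% to 27.9%). More arrays make a single sign harder to reach by construction. Among 43 members named by rule, centring, a common scale, a missing value, averaging by gene and a robust prior changed 0 signs, array weights changed 4, and the dye term changed 11, Endog among them at 0.037. Replicate 1 turned changed 5 and as deposited 5. Leaving out replicate 2 changed 5, replicate 3 changed 7, Bcl2l1 and Bak1 among them, and replicate 4 changed 1. No paired analysis was possible because each array holds a null sample beside the same pool and there is no second group with replicate numbers.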
